A study of Homo sapiens with 4 samples.

Results

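Cells sense interferons through receptor chains at the surface and sense foreign RNA through a small set of helicases and a Toll-like receptor. The genes described here are the 10 that encode these entry points: the interferon receptor chains IFNAR1, IFNAR2, IFNGR1 and IFNGR2, the receptor-bound kinases JAK1 and TYK2, the RNA sensors DDX58 (RIG-I), IFIH1 (MDA5) and TLR3, and the adaptor MAVS. They were chosen by gene name, and 12 of the 57659 Ensembl genes in the deposited table carry a listed name, because IFNAR2 and IFNGR2 each stand under an additional ID. The 10 principal IDs were among the 15640 genes abundant enough to test, and the additional IDs were not.

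RNA was taken from 786-0, an established human renal cell carcinoma line, transfected either with siRNA against SLFN5 (2 libraries, called SLFN5 siRNA 1 and SLFN5 siRNA 2) or with control siRNA (2 libraries, control siRNA 1 and control siRNA 2). SLFN5 belongs to the Schlafen family of interferon-inducible genes, and the title of the series links it to motility and invasion of renal carcinoma cells. No interferon or RNA ligand is named in any label, so these are levels without stated stimulation. No label tells whether replicate libraries were grown as separate cultures, so p-values measure a spread between libraries that may be technical. The siRNA sequences were not used here, and no label tells whether the knockdown libraries used the same siRNA.

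Values are equalised counts, the authors' counts per gene brought to a common library size. The whole counts behind them could be recovered and summed to 17117659 in SLFN5 siRNA 1, 14700669 in SLFN5 siRNA 2, 31905328 in control siRNA 1 and 13187517 in control siRNA 2. The target check held in each library: SLFN5 stood at 167 and 118 equalised counts in the SLFN5 siRNA libraries, against 420 and 353 in the control libraries (log2 change -1.45, SE 0.21, limma adjusted p = 0.000524). The epithelial and kidney genes KRT8, KRT18 and PAX8 were abundant (16498 to 32297 recovered counts over all libraries), whereas the renal carcinoma marker CA9 had 4 and the proximal tubule receptor LRP2 had 0. Of the 7 tested epithelial and renal markers, CDH6 (log2 change 1.42, limma adjusted p = 0.00215), ANPEP (0.69, limma adjusted p = 0.0327) and CUBN (1.88, limma adjusted p = 0.0155) were higher after SLFN5 siRNA. Of leukocyte and endothelial markers, PTPRC had 1 recovered count, CD3E 0 and PECAM1 0, while ITGAM had 64, ESAM 57 and KDR 30. ITGAM (log2 change 1.96, limma adjusted p = 0.0559) and ESAM (1.71, limma adjusted p = 0.0595) lay above both controls in both SLFN5 siRNA libraries but did not pass. Of 8 tested leukocyte, fibroblast and endothelial markers, CD68, a lysosomal protein of macrophages that other cells also make, was higher (555 and 599 equalised counts in the SLFN5 siRNA libraries, against 187 and 204 in the controls), ACTA2 was higher and PDGFRB lower. Their part in the results below was not tested.

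Type I interferons bind a receptor of IFNAR1 and IFNAR2, with TYK2 bound to IFNAR1 and JAK1 to IFNAR2, while type II interferon binds IFNGR1 and IFNGR2, with JAK1 on the ligand-binding chain and JAK2 on the accessory chain. The kinases phosphorylate STAT proteins, which enter the nucleus and switch on interferon-stimulated genes. DDX58 and IFIH1 detect viral RNA in the cytosol and signal through MAVS on mitochondria, TLR3 detects double-stranded RNA in endosomes, and both routes lead to interferon production. DDX58, IFIH1 and TLR3 are themselves interferon-inducible in many cell types.

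After SLFN5 siRNA, 3 of the 4 interferon receptor chains fell, IFNAR2 most, then IFNGR1 and IFNGR2. IFNAR1, both kinases, the RNA sensors and MAVS did not pass. In all, 3 of 10 members passed an adjusted p of 0.05 (limma), 3 lower and 0 higher. Over all 15640 tested genes, 29.6% passed in either direction and 16.3% passed as lower. The share among the members is close to that of all genes and is no result about the set as a whole. With library totals as the scaling, the calls over all genes were 2831 higher and 1780 lower, against 2086 higher and 2544 lower as reported. Both SLFN5 siRNA libraries lay above both controls for 2 members and below them for 4, while 30.5% of all tested genes were separated in the higher direction and 34.1% in the lower. The median log2 change was -0.13 over the members and -0.03 over all tested genes.

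**Figure D1:**
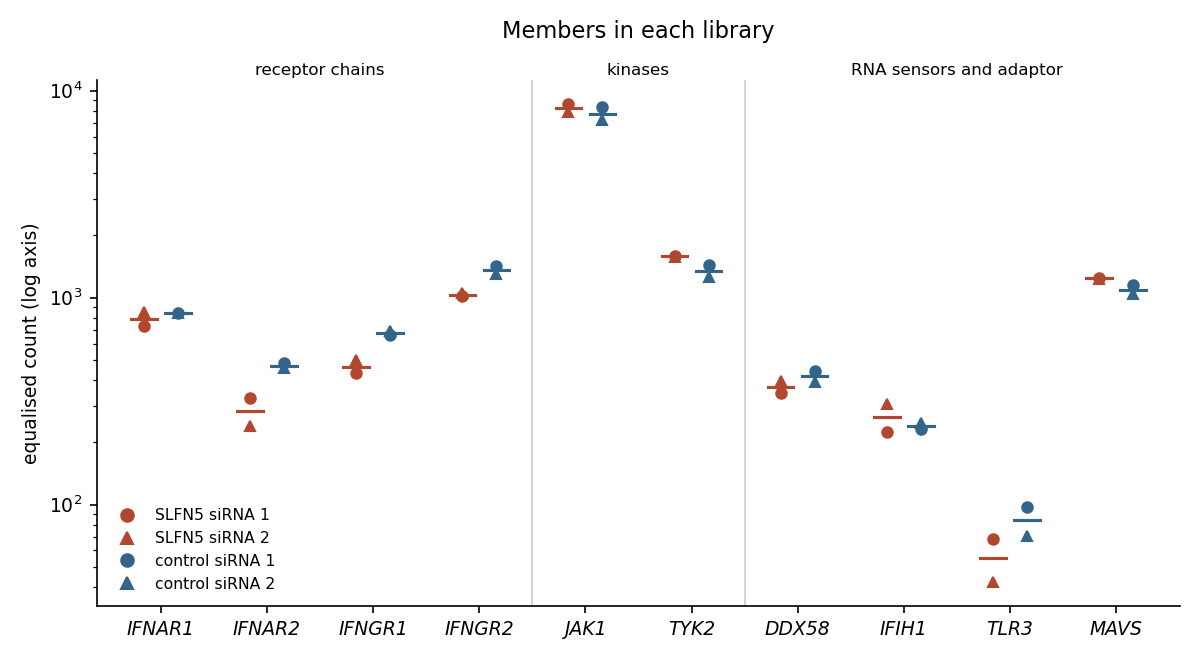
Equalised counts of the 10 members on a log axis, with SLFN5 siRNA libraries in red left of the control siRNA libraries in blue. Circles are replicate 1, triangles replicate 2 and bars the means of 2 libraries. IFNAR2, IFNGR1, IFNGR2 and TLR3 lie lower in both SLFN5 siRNA libraries than in both control libraries, and TYK2 and MAVS lie higher.

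IFNAR2, the chain that binds type I interferon most tightly, had 328 and 240 equalised counts in the SLFN5 siRNA libraries and 482 and 455 in the control libraries. Both knockdown libraries lay below both controls, and they differed from each other more than the controls did. The mean fell to 284 ± 62.3 after SLFN5 siRNA, against 468 ± 19.1 after control siRNA (SD, n = 2 each; log2 change -0.74, SE 0.18, limma adjusted p = 0.0108). That is 0.606 of the control level. IFNAR1, its partner, had 733 and 851 in the SLFN5 siRNA libraries and 842 and 838 in the controls. The groups overlapped, and the log2 change was -0.09 with a 95% interval of -0.39 to 0.21 (limma adjusted p = 0.671).

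The proportion between the type I chains was read within each library. IFNAR2 counts were 0.448 and 0.282 of the IFNAR1 counts in the SLFN5 siRNA libraries, against 0.572 and 0.543 in the controls. Both knockdown ratios were lower, with a difference of -0.65 in the mean log2 ratio. With 2 libraries against 2, an exact two-sided permutation test cannot give a p below 0.333, and no model was fitted to the ratio, so this difference was not tested.

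IFNGR1, the ligand-binding chain of the type II receptor, had 431 and 497 equalised counts in the SLFN5 siRNA libraries, against 661 and 687 in the control libraries. The groups did not overlap. Its mean fell to 464 ± 46.3 after SLFN5 siRNA, against 674 ± 18.9 after control siRNA (SD, n = 2 each; log2 change -0.54, SE 0.15, limma adjusted p = 0.0163). IFNGR2, the accessory chain, had 1019 and 1050 in the SLFN5 siRNA libraries and 1420 and 1302 in the controls, again without overlap. Its means were 1035 ± 21.8 after SLFN5 siRNA and 1361 ± 83.8 after control siRNA (SD, n = 2 each; log2 change -0.39, SE 0.12, limma adjusted p = 0.0305). IFNGR1 counts were 0.423 and 0.473 of the IFNGR2 counts in the knockdown libraries, against 0.465 and 0.528 in the controls, so these ratios overlapped. In bulk RNA, fewer cells with a transcript and less of it per cell cannot be told apart.

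These calls had limits. The IFNAR2 call was lost without SLFN5 siRNA 2 (log2 change -0.51, limma adjusted p = 0.0569), the IFNGR1 call without SLFN5 siRNA 1, control siRNA 1 or control siRNA 2 (limma adjusted p from 0.0526 to 0.105), and the IFNGR2 call without any of the 4 libraries (limma adjusted p from 0.055 to 0.231). With library totals as the only scaling, IFNAR2 still passed (limma adjusted p = 0.021) but IFNGR1 and IFNGR2 did not (limma adjusted p = 0.0572 and 0.149). The same held in limma-voom on the recovered counts (adjusted p = 0.0191 for IFNAR2, 0.0527 for IFNGR1 and 0.127 for IFNGR2). Without the variance trend all 3 calls were lost (limma adjusted p = 0.0926, 0.0896 and 0.131 in the same order). Library totals moved the median of all tested genes to 0.09 from -0.03. Relative to that median the 3 chains stood at -0.70, -0.51 and -0.36 under either scaling. Scaling shifts all genes by nearly the same amount, so this match was fixed in advance and is no support for the calls.

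**Figure D2:**
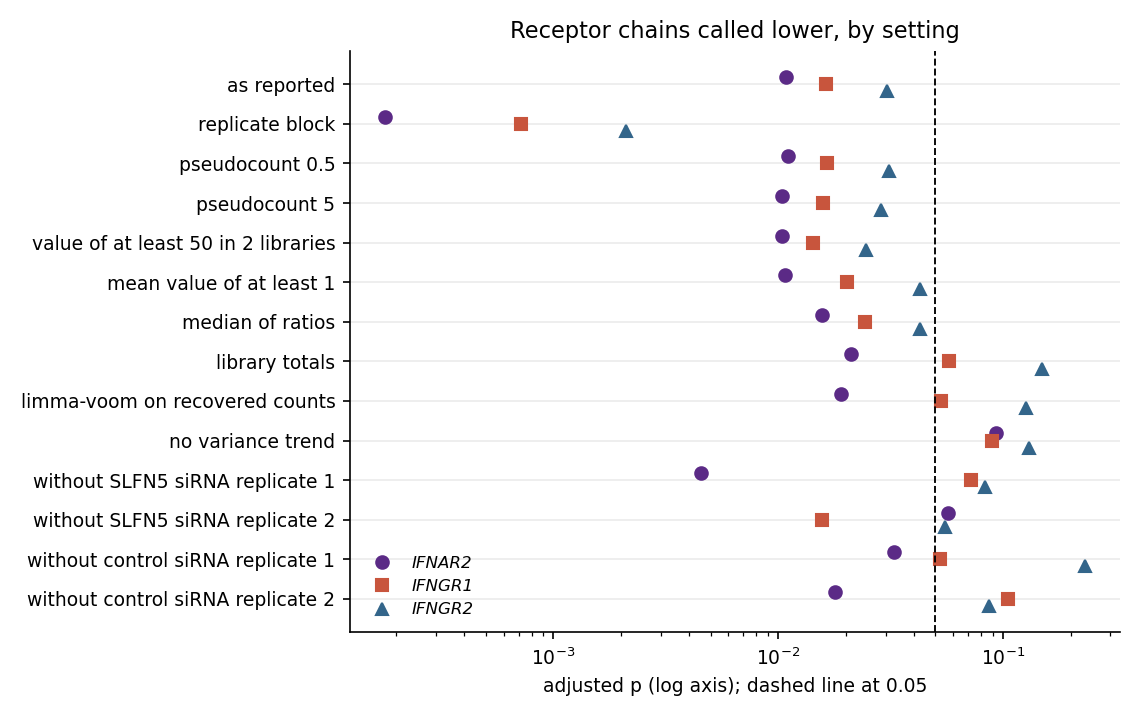
Adjusted p of IFNAR2, IFNGR1 and IFNGR2 on a log axis, as reported and under each of 13 alternatives, with the threshold of 0.05 dashed. IFNAR2 lies left of the line in 11 alternatives, IFNGR1 in 7 and IFNGR2 in 6.

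The chains that fell did not share 1 locus. IFNAR2 and IFNGR2 lie close together on chromosome 21, in the order IFNAR2, IL10RB, IFNAR1, IFNGR2 (RefSeq, GRCh38.p14), whereas IFNGR1 is on chromosome 6. IL10RB, a chain shared by the receptors of interleukin-10 and of the lambda interferons, lies between IFNAR2 and IFNAR1 and had 372 and 443 equalised counts in the SLFN5 siRNA libraries, against 464 and 450 in the controls (log2 change -0.17, limma adjusted p = 0.463). Along this stretch, then, IFNAR2 and IFNGR2 at the ends passed and IL10RB and IFNAR1 between them did not.

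Neighbouring transcripts also share sequence. The additional IFNAR2 ID, ENSG00000249624, is the readthrough transcript IFNAR2-IL10RB in current gene names, and 44.2% of the exonic bases of IFNAR2 lie in it (GENCODE v29). It had 3.08 and 4.60 equalised counts in the SLFN5 siRNA libraries and 9.40 and 15.3 in the controls, too few to test. On the opposite strand, a noncoding gene overlaps 39.1% of the exonic bases of IFNAR2 and had 27 recovered counts over all libraries, against 1669 for IFNAR2. IFNGR2 shares 12.8% of its exonic bases with TMEM50B on the opposite strand, which had 482 and 601 equalised counts in the SLFN5 siRNA libraries and 597 and 684 in the controls (log2 change -0.25, limma adjusted p = 0.274). The library kit does not mark strand, and how the authors counted shared bases is not stated in these sources, so reads in those stretches cannot be assigned. The additional IFNGR2 ID, ENSG00000262795, had 0 recovered counts in every library.

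The promoters of the type II chains are shown because both genes fell and both have an entry in the promoter table (RefSeq, GRCh38.p14; the authors' build was hg19, per the submitters' processing notes). Each runs 5′ to 3′ from 250 bases before to 50 bases after the annotated start furthest upstream. IFNAR2 has no entry in that table.
IFNGR1, chr6:137219336-137219635, minus strand: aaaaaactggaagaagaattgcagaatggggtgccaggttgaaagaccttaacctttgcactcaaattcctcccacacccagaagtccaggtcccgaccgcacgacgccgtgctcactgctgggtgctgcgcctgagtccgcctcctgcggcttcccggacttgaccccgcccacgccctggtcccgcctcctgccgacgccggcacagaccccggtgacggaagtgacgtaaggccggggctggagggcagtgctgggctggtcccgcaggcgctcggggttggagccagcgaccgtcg
IFNGR2, chr21:33403163-33403462, plus strand: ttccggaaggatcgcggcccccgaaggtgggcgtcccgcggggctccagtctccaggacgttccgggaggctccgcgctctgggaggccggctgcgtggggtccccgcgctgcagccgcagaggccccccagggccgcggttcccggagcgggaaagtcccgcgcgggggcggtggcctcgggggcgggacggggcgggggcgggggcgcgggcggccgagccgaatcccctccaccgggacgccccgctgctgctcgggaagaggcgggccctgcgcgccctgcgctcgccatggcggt
Neither window holds the core of the interferon-stimulated response element, searched on both strands as GAAA, any 2 bases and GAAA again, or a gamma-activated site, searched as TTCNNNGAA on both strands. Of 35116 windows of 300 bases in the table, 3.57% hold the response element core and 7.66% the gamma-activated site. So no letters are in capitals, and a missing match says only that these letters are not in these windows.

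JAK1, the kinase that serves receptors of both interferon types, was the most abundant member, at 8639 and 7927 equalised counts in the SLFN5 siRNA libraries and 8294 and 7177 in the control libraries. The groups overlapped, with a log2 change of 0.10 and a 95% interval of -0.15 to 0.35 (limma adjusted p = 0.552). TYK2, the partner kinase on IFNAR1, had 1597 and 1571 in the SLFN5 siRNA libraries and 1445 and 1253 in the controls. Both knockdown libraries lay above both controls, but the log2 change of 0.23 (SE 0.12, 95% interval -0.03 to 0.50) did not pass (limma adjusted p = 0.177). Groups that do not overlap were common here, at 64.6% of all tested genes. Of the 2 kinases, 0 passed in limma, 0 had an unadjusted p under 0.05, and 0 passed in limma-voom on the recovered counts.

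The RNA sensors did not pass. DDX58 (RIG-I), which binds RNA with a 5′ triphosphate, had 346 and 394 equalised counts in the SLFN5 siRNA libraries and 440 and 392 in the controls, with overlap (log2 change -0.17, 95% interval -0.53 to 0.18, limma adjusted p = 0.473). IFIH1 (MDA5), which binds long double-stranded RNA, had 225 and 306 in the SLFN5 siRNA libraries, on either side of the controls at 232 and 247. Its log2 change was 0.13 (95% interval -0.31 to 0.57, limma adjusted p = 0.672).

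TLR3, the endosomal sensor of double-stranded RNA, was the least abundant member. It had 68.4 and 42.4 equalised counts in the SLFN5 siRNA libraries and 97.7 and 70.8 in the controls. These rest on 67 and 36 recovered counts in the SLFN5 siRNA libraries and on 166 and 48 in the controls. Both knockdown libraries were below both controls, with the nearest libraries at 68.4 and 70.8. The log2 change of -0.62 had the widest interval of the members, -1.34 to 0.10 (limma adjusted p = 0.185), so a decrease as large as that of IFNAR2 was within the interval. The log2 change was -0.28 without SLFN5 siRNA 2, -0.39 without control siRNA 1, -0.85 without control siRNA 2 and -0.96 without SLFN5 siRNA 1.

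MAVS, the mitochondrial adaptor that relays the signal of DDX58 and IFIH1, had 1241 and 1236 equalised counts in the SLFN5 siRNA libraries and 1145 and 1038 in the controls. The knockdown libraries lay above the controls, and the log2 change of 0.18 (95% interval -0.09 to 0.45) did not pass (limma adjusted p = 0.295). Of these 4 genes, 0 passed in limma, 0 had an unadjusted p under 0.05, and 0 passed in limma-voom on the recovered counts.

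The 95% intervals show the changes that the fit as reported allowed, under its scaling and its spread between libraries. With library totals the log2 changes of JAK1, TYK2, MAVS and IFNAR1 were 0.22, 0.36, 0.31 and 0.034, above those reported. As reported, the 95% interval for JAK1, TYK2, MAVS and IFNAR1 reached at most 0.50 in either direction on the log2 scale. For IFIH1 it reached 0.57 upward, and for DDX58 0.53 downward. A p that misses the threshold does not show that a gene was unchanged.

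**Figure D3:**
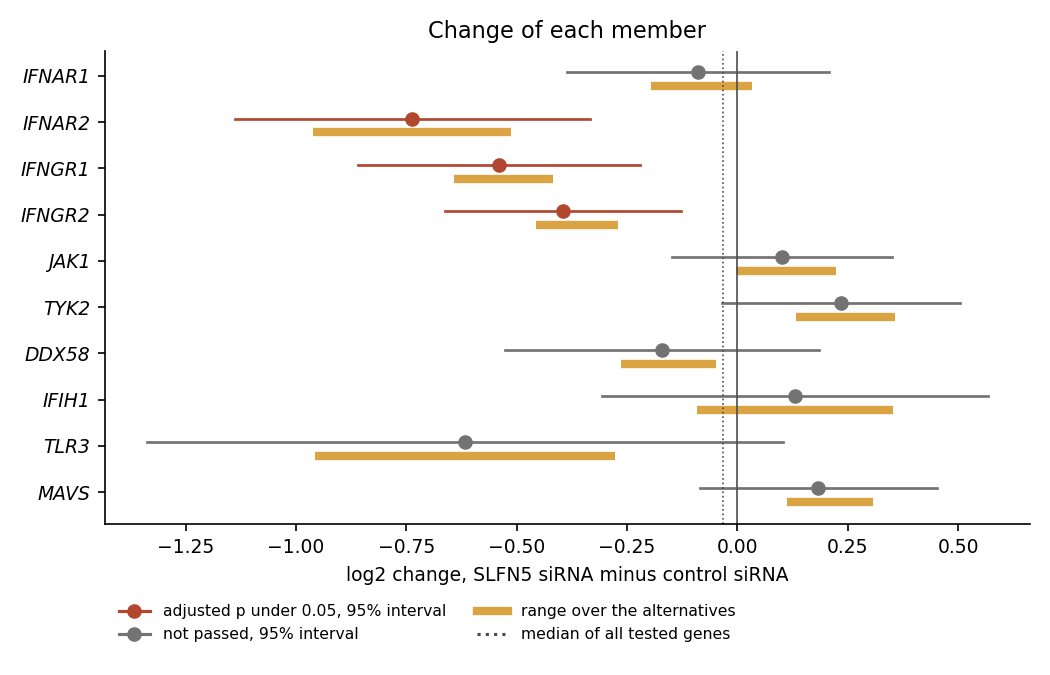
Log2 change of each member, SLFN5 siRNA minus control siRNA, with its 95% interval (red where the adjusted p is under 0.05, grey otherwise); yellow bars span the 13 alternatives and the dotted line is the median of all tested genes at -0.03. The intervals of IFNAR2, IFNGR1 and IFNGR2 lie below 0 and that of TLR3 spans -1.34 to 0.10.

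The promoters of IFIH1 and TLR3 are shown because these sensors are interferon-inducible genes and theirs are the members' windows that hold the response element core. Capitals mark matches to the response element core on either strand and, in TLR3, also to TTCNNNGAA.
IFIH1, chr2:162318635-162318934, minus strand: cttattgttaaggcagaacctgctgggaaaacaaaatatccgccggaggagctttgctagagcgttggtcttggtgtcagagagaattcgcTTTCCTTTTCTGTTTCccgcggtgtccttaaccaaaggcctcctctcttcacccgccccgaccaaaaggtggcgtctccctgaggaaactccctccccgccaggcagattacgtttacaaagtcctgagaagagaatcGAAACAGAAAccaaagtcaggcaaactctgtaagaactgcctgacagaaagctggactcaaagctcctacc
TLR3, chr4:186068906-186069205, plus strand: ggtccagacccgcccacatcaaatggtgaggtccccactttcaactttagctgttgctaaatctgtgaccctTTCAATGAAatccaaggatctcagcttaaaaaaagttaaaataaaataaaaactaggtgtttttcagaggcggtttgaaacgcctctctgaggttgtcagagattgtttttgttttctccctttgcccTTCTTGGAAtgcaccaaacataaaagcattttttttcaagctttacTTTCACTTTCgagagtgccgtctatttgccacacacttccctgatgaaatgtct
IFIH1 holds 3 matches to the response element core, of which the pair beginning 159 and 153 bases before the start overlap each other and the last begins 21 bases before it. TLR3 holds 1, beginning 4 bases before the start, and 2 matches to the gamma-activated site, beginning 178 and 50 bases before it. The windows of DDX58, MAVS, JAK1, TYK2 and IFNAR1 hold no match to either motif. A match describes letters and is not evidence of binding in these cells.

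Levels of different members can be compared only per length, and equalised counts were divided by the merged exonic length of each gene in GENCODE v29 (the annotation of the authors' counting is not stated in these sources). Per kilobase, JAK1 stood first, at 1311 ± 79.7 after SLFN5 siRNA and 1225 ± 125 after control siRNA (SD, n = 2 each). IFNGR2 followed at 350 ± 7.38 after SLFN5 siRNA and 460 ± 28.3 after control siRNA. TYK2 had 234 ± 2.73 after SLFN5 siRNA and 199 ± 20.1 after control siRNA, and IFNGR1 had 142 ± 14.1 and 206 ± 5.78 in the same order. In the controls these kinase and receptor levels overlapped, while after SLFN5 siRNA TYK2 lay above IFNGR1 in both libraries.

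Of the members at lower levels, IFNAR1 had 126 ± 13.3 per kilobase after SLFN5 siRNA and 133 ± 0.465 after control siRNA, which in the knockdown libraries overlapped with IFNGR1. MAVS had 105 ± 0.301 after SLFN5 siRNA and 92.7 ± 6.38 after control siRNA, and DDX58 had 84.9 ± 7.79 and 95.6 ± 7.93 in the same order. IFNAR2 had 61.6 ± 13.5 after SLFN5 siRNA and 102 ± 4.14 after control siRNA. Its length includes the shared bases described above, whose reads cannot be assigned, so its place in the order is uncertain. In the controls IFNAR2 overlapped with DDX58, and DDX58 with MAVS, while all of them lay above IFIH1. After SLFN5 siRNA IFNAR2 lay below DDX58 in both libraries and overlapped with IFIH1, at 52.0 ± 11.2 after SLFN5 siRNA and 46.9 ± 2.06 after control siRNA. TLR3 was last, at 8.24 ± 2.74 after SLFN5 siRNA and 12.5 ± 2.83 after control siRNA.

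**Figure D4:**
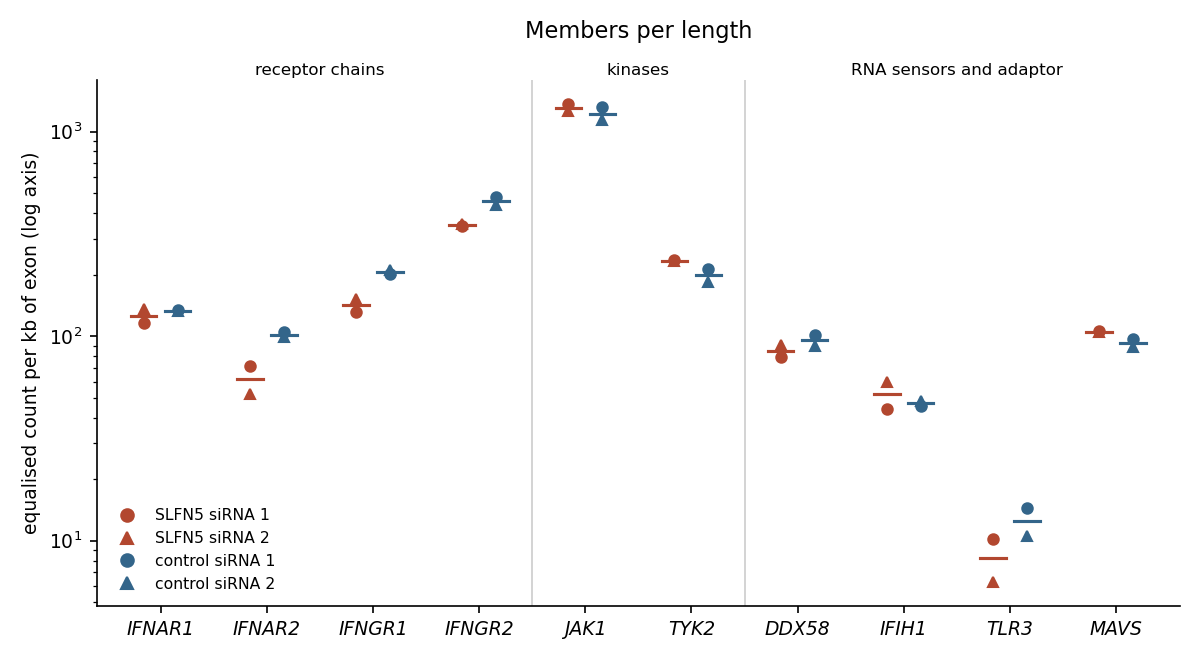
Equalised counts per kilobase of merged exon on a log axis, drawn as in the plot of members by library. JAK1 lies above and TLR3 below every other member in each library, and IFNAR2 sits near DDX58 and MAVS in the controls but below them after SLFN5 siRNA.

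Interferon transcripts themselves were near 0. Of 21 interferon genes found by name, 18 had 0 recovered counts over all 4 libraries and IFNL1, IFNE and IFNA14 had 1 each. IFNB1, the type I interferon that epithelial cells make on RNA sensing, and IFNG were among those at 0. A count of 0 allows up to 3 counts, or 0.0940 to 0.227 CPM across the libraries, and covers counting error only.

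The remaining receptor chains and kinases did not pass. JAK2, the partner of IFNGR2, had 143 and 112 equalised counts in the SLFN5 siRNA libraries and 166 and 243 in the controls, without overlap (log2 change -0.66, SE 0.25, limma adjusted p = 0.0621). IFNLR1, the lambda interferon chain, had 61.3 and 58.2 in the SLFN5 siRNA libraries and 118 and 70.1 in the controls (log2 change -0.60, limma adjusted p = 0.177), and JAK3, a kinase mostly of blood cells, 63.4 and 65.0 in the SLFN5 siRNA libraries and 47.6 and 38.3 in the controls (log2 change 0.58, limma adjusted p = 0.197). With IL10RB, 0 of these 4 passed in limma, 1 had an unadjusted p under 0.05, and all 4 had groups that did not overlap, as did 64.6% of all tested genes. Without control siRNA 1, 1 of the 4 passed as lower.

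Directly below the receptors, the STATs and interferon regulatory factors included calls in both directions: of 13 tested, 5 were higher and 2 lower (53.8%, with 29.6% over all genes; median log2 change 0.16). Without the variance trend in limma, 3 of the 13 passed, with 1182 of 15640 over all genes. Of the called genes named here and in the lists below, STAT3, IRF7, ZC3HAV1, CHUK, SOCS1, PTPN11 and TAP2 passed without the trend. The other named calls were lost in that setting, which is not repeated gene by gene. STAT3, the main STAT of the interleukin-6 family, had 2048 and 1988 equalised counts in the SLFN5 siRNA libraries, against 961 and 1006 in the controls (log2 change 1.04, SE 0.12, limma adjusted p = 9.92e-05). STAT2, which acts below the type I receptor, had 1339 and 1171 in the SLFN5 siRNA libraries and 819 and 785 in the controls (log2 change 0.64, SE 0.13, limma adjusted p = 0.00342). STAT6, which serves interleukin-4, rose (log2 change 0.46, limma adjusted p = 0.0102), while STAT5A (log2 change -0.69, limma adjusted p = 0.0743) and STAT5B (-0.09, limma adjusted p = 0.749) did not pass, and STAT4 had 20 recovered counts in all. IRF9, the DNA-binding partner of STAT2, had 7.16 and 8.11 in the SLFN5 siRNA libraries and 9.83 and 10.1 in the controls, too few to test.

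Among the regulatory factors, IRF7, the amplifier of type I interferon production, rose (log2 change 1.51, SE 0.30, limma adjusted p = 0.00281), with 127 and 130 equalised counts in the SLFN5 siRNA libraries against 54.5 and 36.0 in the controls. IRF1, a target of type II interferon signalling, fell (log2 change -0.65, SE 0.12, limma adjusted p = 0.00219), with 1165 and 1070 in the SLFN5 siRNA libraries against 1818 and 1681 in the controls. IRF3, the factor that DDX58, IFIH1 and TLR3 activate first, had a log2 change of 0.16 and did not pass (limma adjusted p = 0.423).

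Of 19 other RNA sensors and cofactors tested, 1 was higher and 4 lower (26.3%, with 29.6% over all genes), with a median log2 change of -0.18. ZC3HAV1, an antiviral zinc finger protein that also enhances RIG-I signalling, had 3949 and 3866 equalised counts in the SLFN5 siRNA libraries, against 6895 and 7487 in the controls (log2 change -0.88, SE 0.11, limma adjusted p = 0.000149). The RNA helicase DHX9 fell by 0.70 on the log2 scale, and PRKRA, a double-stranded RNA-binding activator of the kinase PKR, fell by 0.68. IFIT5, which binds RNA 5′ ends, fell by 0.60, a call lost without control siRNA 2 (limma adjusted p = 0.0541). DDX60, a helicase reported to act with RIG-I, rose by 0.38, a call lost without SLFN5 siRNA 2, control siRNA 1 or control siRNA 2 (limma adjusted p from 0.149 to 0.202). DHX58 (LGP2), the RIG-I relative that lacks the signalling domain, had 126 and 125 in the SLFN5 siRNA libraries and 105 and 72.5 in the controls (log2 change 0.52, limma adjusted p = 0.165). TLR7 and TLR8, the endosomal sensors of single-stranded RNA, had 2 and 0 recovered counts.

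Downstream of the sensors, 2 of 22 tested adaptors and kinases were higher and 4 lower (27.3%, with 29.6% over all genes), with a median log2 change of -0.12. TRAF3, a ubiquitin ligase below MAVS, had 1196 and 1042 equalised counts in the SLFN5 siRNA libraries and 738 and 731 in the controls (log2 change 0.60, SE 0.13, limma adjusted p = 0.00527). IKBKE, a kinase of IRF3, had a log2 change of 0.57 (limma adjusted p = 0.014), lost without SLFN5 siRNA 1 (0.069) or control siRNA 2 (0.171). CHUK, TOMM70A, the mitochondrial import receptor that binds MAVS, and TANK, a scaffold of the IRF3 kinases, fell by 0.84, 0.76 and 0.76 on the log2 scale. The phosphatase subunit PPP1CC fell by 0.56. TBK1, the principal IRF3 kinase, did not pass (log2 change -0.25, limma adjusted p = 0.177).

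Of 32 tested negative regulators, 6 were higher and 11 lower (53.1%, with 29.6% over all genes), with a median log2 change of -0.18. The calls were 9 without control siRNA 2, with 2934 over all genes, and 2 without the variance trend, with 1182 over all genes, so the higher share was not kept without the trend. SOCS1, the inhibitor that binds JAK1 and TYK2, had 24.5 and 22.2 equalised counts in the SLFN5 siRNA libraries and 69.7 and 58.6 in the controls (log2 change -1.42, SE 0.35, limma adjusted p = 0.0107), a call lost without control siRNA 1 (0.0874). SOCS5 fell by 0.76, SOCS2 by 0.83 and PIAS3, an inhibitor of STAT3, by 0.67. SOCS2 did not pass without SLFN5 siRNA 1 (limma adjusted p = 0.059) or control siRNA 1 (0.14), and PIAS3 did not without SLFN5 siRNA 2 (0.0962), without control siRNA 1 (0.156) or with library totals (0.0546). The tyrosine phosphatase PTPN11 rose by 0.99 (limma adjusted p = 0.000153), with 3314 and 3974 in the SLFN5 siRNA libraries against 1813 and 1828 in the controls. PTPN6 rose by 1.11, a call lost without SLFN5 siRNA 1 (limma adjusted p = 0.0527), TRIM38, which restrains TLR3 signalling, rose by 0.87, and RNF5, a ligase that marks MAVS, rose by 0.51, a call lost without SLFN5 siRNA 2 (0.0621) or control siRNA 2 (0.168). USP18, which binds IFNAR2 and blocks JAK1 there, had a log2 change of -0.44 and did not pass (limma adjusted p = 0.118).

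Interferon-stimulated genes, the readout of the receptors, were called at a share close to that of all genes, with 6 of 42 tested higher and 7 lower (31.0%, with 29.6% over all genes; median log2 change -0.07). Among those lower were IFIT2 (log2 change -1.28), the guanylate-binding proteins GBP2 (-1.46) and GBP4 (-1.04), and the peptide transporter subunit TAP2 (-0.86). The GBP2 call was lost without SLFN5 siRNA 2 (limma adjusted p = 0.0717) and the GBP4 call without any of the 4 libraries (limma adjusted p from 0.0536 to 0.233). Among those higher were IFI35 (0.91), TRIM5 (0.83), GBP3 (0.62) and HERC6 (0.60), the last lost without any of the 4 libraries (limma adjusted p from 0.0603 to 0.177). ISG15, a ubiquitin-like product of type I signalling, had 1367 and 1123 equalised counts in the SLFN5 siRNA libraries and 1272 and 996 in the controls, with overlap (log2 change 0.14, limma adjusted p = 0.54).

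**Figure D5:**
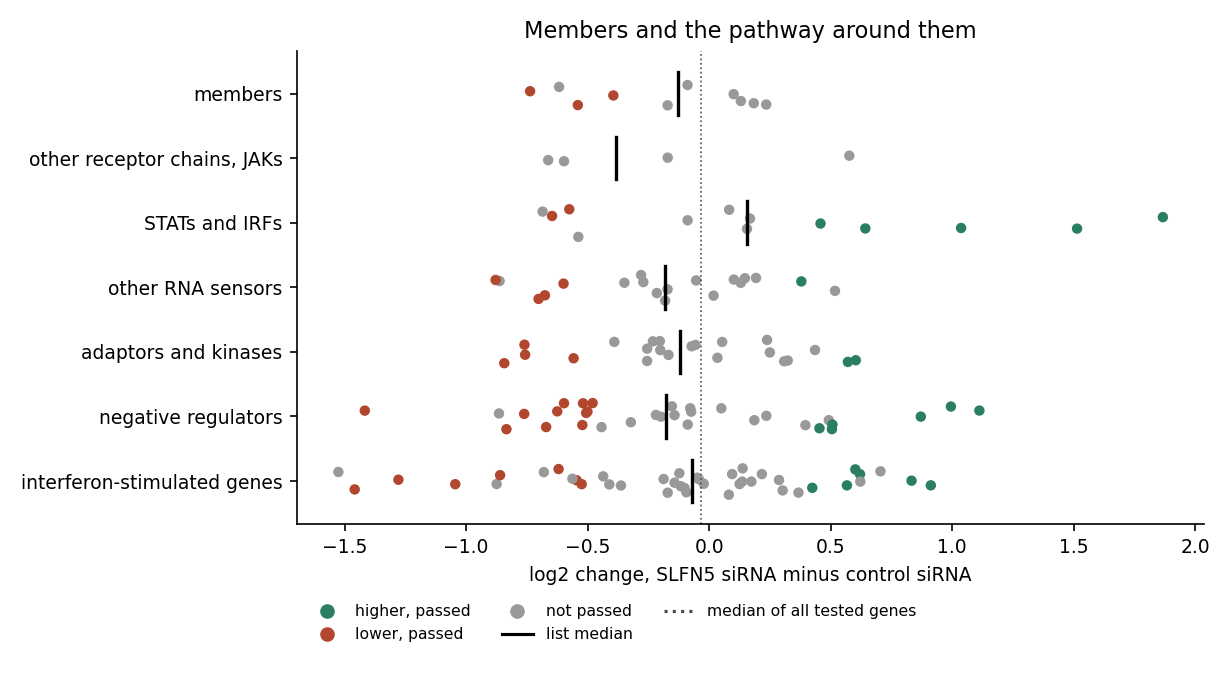
Log2 change of every tested gene among the members and the pathway lists, SLFN5 siRNA minus control siRNA, green or red where the adjusted p is under 0.05; black bars are list medians and the dotted line the median of all tested genes at -0.03. The list medians lie between -0.38 and 0.16, and each list of at least 13 tested genes holds calls in both directions.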

How the data were processed

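Poly(A) RNA was made into libraries with an unstranded TruSeq kit and sequenced from one end, per the labels' protocols. Each deposited value is a signal, derived by the authors from reads per gene and scaled to a common library size. The values look like edgeR pseudo-counts, and the submitters' processing notes name edgeR and hg19. The aligner, counter and annotation were not given in the sources used here. Inverting the adjustment returned whole counts for 100% of the values in each library (relative tolerance 1e-06, common dispersion 0.0162). These counts gave the depth and a limma-voom alternative.

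The 15640 genes that reached 10 in 2 or more libraries entered limma 3.58.1 in R 4.3.3 on log2(value + 1), group alone, with a variance trend and Benjamini-Hochberg adjustment over all tested genes (prior degrees of freedom 9.60, residual 2). The log2 change understates that of low genes. The code was tested on simulated data. The members and pathway lists were chosen with earlier results of these data known. From each list the text names called genes by size, up to 4 per direction, and every other measured JAK, receptor chain, STAT and ligand; some genes under this rule are not reported here. Other genes of known role (IRF3, IRF9, DHX58, TLR7, TLR8, TBK1, USP18, ISG15) were added after their values were seen. MARCH5 stands as a date in the table and was matched by its ID. The alternatives were 13 in number.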

Additional observations from a re-analysis of the deposited data

How the results depend on the processing

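Calls among the members, 3 as reported, were 1 with library totals, 1 with limma-voom on the recovered counts, 0 without the variance trend, and 1 to 1 when each library was left out in turn. Over all tested genes, 4630 calls became 1182 without the trend and 2934 to 4084 without a library (2934 without control siRNA 2). Over the pathway lists together, 48 became 8 without the trend and 32 to 43 without a library. Library totals gave 2831 higher and 1780 lower calls, limma-voom 2800 and 1823, against 2086 and 2544 as reported. IFNAR1 changed sign with library totals (log2 change 0.034), with limma-voom (0.026) and without SLFN5 siRNA 1 (0.019; -0.20 to 0.019 without each library), IFIH1 without SLFN5 siRNA 2 (-0.091 to 0.35) and JAK1 without control siRNA 2 (-0.0033 to 0.21). None of these passed, and the causes were not tested. With the filter at a mean value of at least 1, DDX60 and HERC6 did not pass (limma adjusted p = 0.0598 and 0.0567). GBP4 did not pass in limma-voom on the recovered counts (adjusted p = 0.0507).

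Replicate numbers are shared between groups (also as S371 and S374 in the titles), but no label says what they mark. Deviations of same-numbered libraries from their group means had r = 0.19 over 15640 genes. With the number as a block, calls were 6703 over all genes, 4 among the members (TYK2 added, limma adjusted p = 0.0475) and 67 over the lists, with 1 of the other receptor chains and kinases lower, against 0 as reported. A lone library in a group was assumed to vary like the others. TLR3 has the lowest counts of the members; depth and spread between libraries were not separated as limits.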

Other observations

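Beyond the receptor cluster on chromosome 21, GART passed, while the other tested neighbours, TMEM50B, DNAJC28 and SON, did not. Over all tested genes 29.6% passed, so a call among these neighbours is no result about the region. DNAJC28, between TMEM50B and GART, had 6.19 and 20.4 equalised counts in the SLFN5 siRNA libraries and 22.2 and 5.66 in the controls. Its log2 change was -0.0026 (limma adjusted p = 0.999). GART, an enzyme of purine synthesis that lies past IFNGR2 and TMEM50B, had 2972 and 3723 equalised counts in the SLFN5 siRNA libraries, against 4741 and 5453 in the control libraries, and fell (log2 change -0.61, limma adjusted p = 0.00469). SON, a nuclear speckle protein and the next gene, had 4102 and 3292 in the SLFN5 siRNA libraries and 2960 and 2894 in the controls (log2 change 0.33, limma adjusted p = 0.0677), which did not pass. On the other side of IFNAR2, the neural factors OLIG2 and OLIG1 had 0 and 1 recovered counts, and EPCIP was not found by name. These neighbours were taken by position, up to 4 on each side, after the receptor values had been seen.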
